A study of Mus musculus with 4 samples.

Results

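This account describes 35 genes for glutamate receptors and their auxiliary subunits in single nuclei of the mouse hippocampus. The genes were listed by symbol: 4 AMPA receptor subunits, 6 NMDA receptor subunits, 5 kainate receptor subunits, 1 delta receptor, 6 metabotropic receptors, 11 AMPA receptor auxiliary subunits and 2 kainate receptor auxiliary subunits. All 35 symbols were found among the 55403 features of the count tables, each with a single identifier. Unique molecular identifiers (UMIs) of each gene were summed per library within classes of neurons and glia that were defined by marker genes, and the 35 genes took no part in forming those classes. Levels are in CPM, that is, per 1000000 UMIs summed over a class.

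Glutamate is the main excitatory transmitter of the hippocampus. AMPA, NMDA and kainate receptors are ion channels built from subunits encoded by the Gria, Grin and Grik genes, while metabotropic receptors, encoded by the Grm genes, act through G proteins. Auxiliary subunits such as the transmembrane AMPA receptor regulatory proteins (Cacng genes), the Shisa proteins, the cornichons and the Neto proteins bind the channels and set their trafficking and gating. Glia carry some of these receptors as well: astrocytes and the precursors of oligodendrocytes are known for them.

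Nuclei came from frozen hippocampus pooled within each of 3 groups. PS19 mice, on a B6;C3 background, carry human MAPT with the P301S change in its 1N4R tau isoform under the Prnp promoter. They are used to model tauopathy. The TG_PS19 group has the same PS19 transgene together with a Rosa26 allele from which SORLA is overexpressed, driven by a promoter element of the CMV/β-actin type. WT mice were the reference. The number of animals in a pool and their age and sex are not given in the sources used here. WT and TG_PS19 were 1 library each and PS19 was 2 libraries, so the PS19 pair gave the only measured spread, and nothing states whether its 2 libraries came from separate pools. In these classes fewer nuclei of a subtype and less RNA per nucleus cannot be told apart.

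The libraries held 4643 to 12762 barcodes and 20064025 to 48670533 UMIs, with medians of 2643 to 3708.5 UMIs per nucleus. After filtering, 11458 nuclei remained in WT, 4467 and 4728 in PS19 and 8963 in TG_PS19, and pairs of libraries shared 5 to 32 barcodes. No UMI of human MAPT was found in WT, where a count of 0 leaves room for 0.0737 CPM (3 counts). It was at 17.7 and 18.7 CPM in the PS19 pair and 12.9 in TG_PS19. SORL1 had 2204 UMIs in TG_PS19 and 0 to 7 elsewhere. The TG_PS19 library stood apart in sex: 49.9% of its nuclei had Xist UMIs without Y-linked ones, against at most 0.244% in the other 3. Of 33 clusters, those named by markers gave 5 neuron classes (dentate granule, CA1 pyramidal, other excitatory, inhibitory and Cajal-Retzius), 4 glial classes (astrocyte, oligodendrocyte precursor, oligodendrocyte and microglia) and 3 vascular classes used for levels. These names mean likeness by markers, and CA3 and subicular neurons were joined under other excitatory neurons.

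Each gene had its own distribution over the 12 classes. The mean level was highest in CA1 pyramidal neurons for 12 genes, in inhibitory neurons and in oligodendrocyte precursors for 6 each, in dentate granule neurons for 5, in mural cells and in other excitatory neurons for 2 each, and in astrocytes and Cajal-Retzius neurons for 1 each. For 21 of the 35 the range over the 4 libraries in the highest class lay wholly above that in the next class. Over all 21027 genes that passed the low-count filter in a tested class this held for 28.7%. For Grin1, Grik2, Grik3, Grik5, Grm2, Grm4, Grm8, Cacng2, Cacng3, Cacng5, Cnih2, Neto1, Neto2 and Gsg1l the 2 leading classes did not differ beyond their spread.

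**Figure D1:**
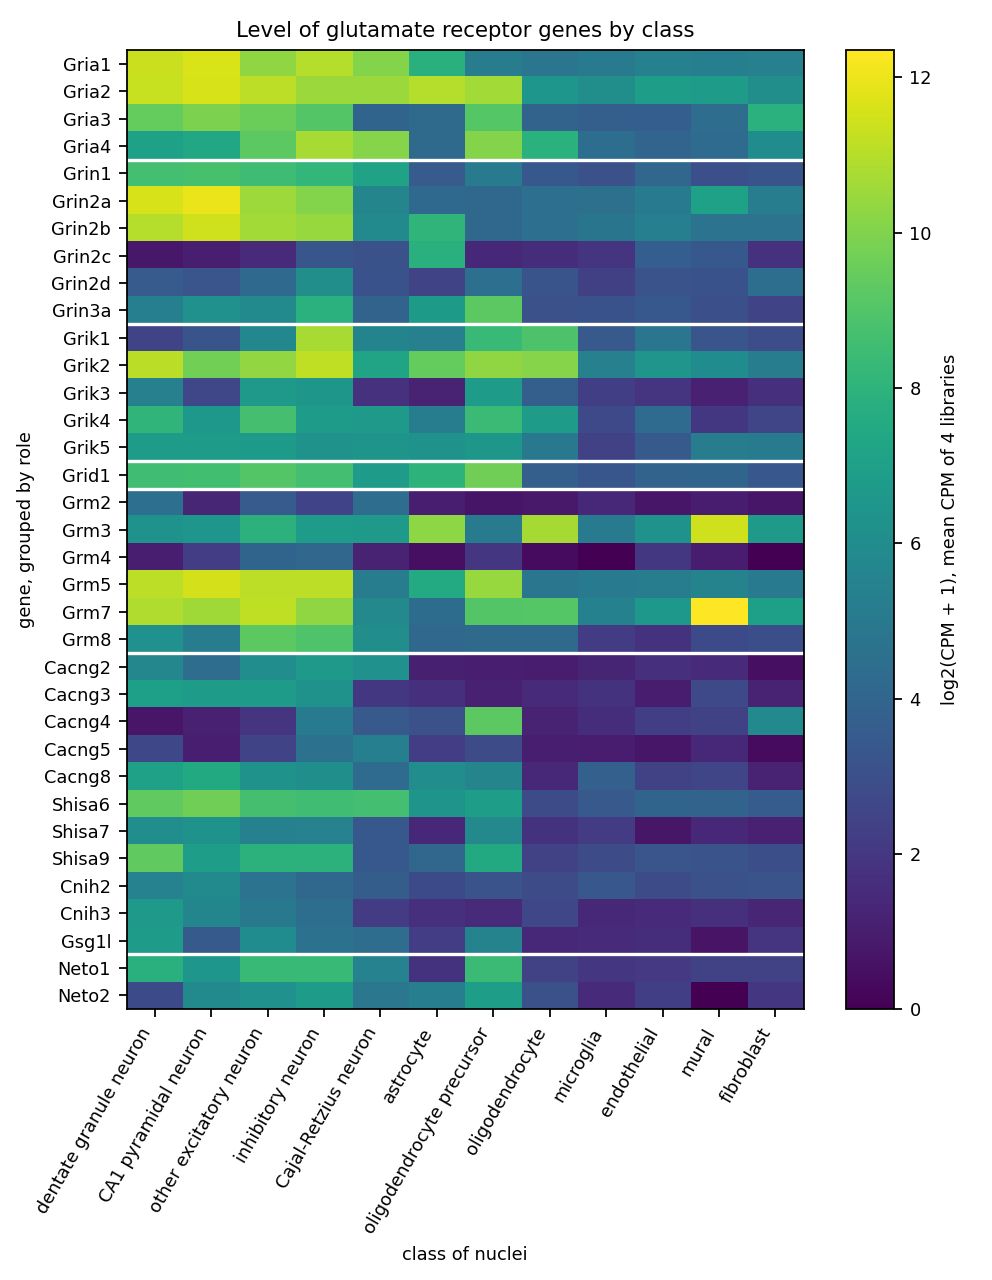
Level of the 35 genes (rows, grouped by role with white lines) in the 12 classes of nuclei (columns), as log2(CPM + 1) of the mean CPM of the 4 libraries. Neurons hold most of the genes at high levels, whereas Grin2c is highest in astrocytes (229 CPM), Cacng4 in oligodendrocyte precursors (596 CPM), and Grm3 (2842 CPM) and Grm7 (5213 CPM) in mural cells.

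Of the 315 pairs of a tested class and a gene, 260 passed the low-count filter and were tested with edgeR. The 55 others lay mostly in microglia, with 19 genes not tested, and Cajal-Retzius neurons, with 15. In PS19 against WT 39 of the 260 pairs were called at an adjusted p under 0.05, where 2.83% of all 119984 pairs of a class and a gene were called. Of these 39, 7 were higher in PS19, beside 1.32% of all pairs, and 32 were lower, beside 1.51%. In TG_PS19 against PS19 44 pairs were called, beside 5.43% of all pairs, with 35 higher in TG_PS19 (3.60% of all pairs) and 9 lower (1.84%). TG_PS19 against WT, which sets 2 lone libraries against each other, gave 17 calls, beside 2.41% of all pairs, with 12 higher (1.70%) and 5 lower (0.706%). Scaled by library totals alone, the splits became 29 higher and 10 lower in TG_PS19 against PS19 (3448 and 4152 over all pairs) and 7 and 6 in TG_PS19 against WT (1418 and 1707), and the median log2 fold of all genes moved by -0.18 in astrocytes against PS19, the farthest of any class. The median log2 folds of the set were -0.02, 0.19 and 0.10 in the 3 comparisons, against 0.01, -0.01 and 0.00 over all pairs. The 3 comparisons share libraries, so a call in one is not independent of a call in another.

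By class, PS19 against WT called 12 of 31 tested genes in astrocytes (4 higher, 8 lower), where 5.76% of all genes were called. In oligodendrocytes 12 of 32 were called, all lower, where 7.01% of all genes were called and 4.30% were called lower. In microglia 6 of 16 were called, all lower, where 4.10% were called and 1.85% called lower. Among neurons the calls were 4 of 33 in dentate granule neurons (3.11% of all genes), 1 of 30 in CA1 pyramidal neurons (0.412%), 1 of 34 in other excitatory neurons (0.896%), 2 of 35 in inhibitory neurons (0.645%) and 1 of 20 in Cajal-Retzius neurons (0.308%). In oligodendrocyte precursors edgeR called 0 of 29 (0.330% of all genes), with 3 at an unadjusted p under 0.05 and 0 called by DESeq2.

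TG_PS19 against PS19 called 15 of 31 genes in astrocytes (10 higher, 5 lower; 9.15% of all genes were called) and 12 of 32 in oligodendrocytes (11 higher, 1 lower; 9.23%). In dentate granule neurons 9 of 33 were called (6 higher, 3 lower), where 9.25% of all genes were (1084 higher, 522 lower). In other excitatory neurons 5 of 34 were called, all higher (3.94% of all genes). Over all genes most calls in clusters 17, 18 and 22 of this class were higher too (112 of 152, 315 of 370 and 12 of 14). Single genes were called in Cajal-Retzius neurons (0.486% of all genes), oligodendrocyte precursors (1.99%) and microglia (4.55%). In CA1 pyramidal neurons (2.40% of all genes called) and inhibitory neurons (1.83%) edgeR called 0 genes, with 4 and 7 at an unadjusted p under 0.05 and 0 called by DESeq2 in either.

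**Figure D2:**
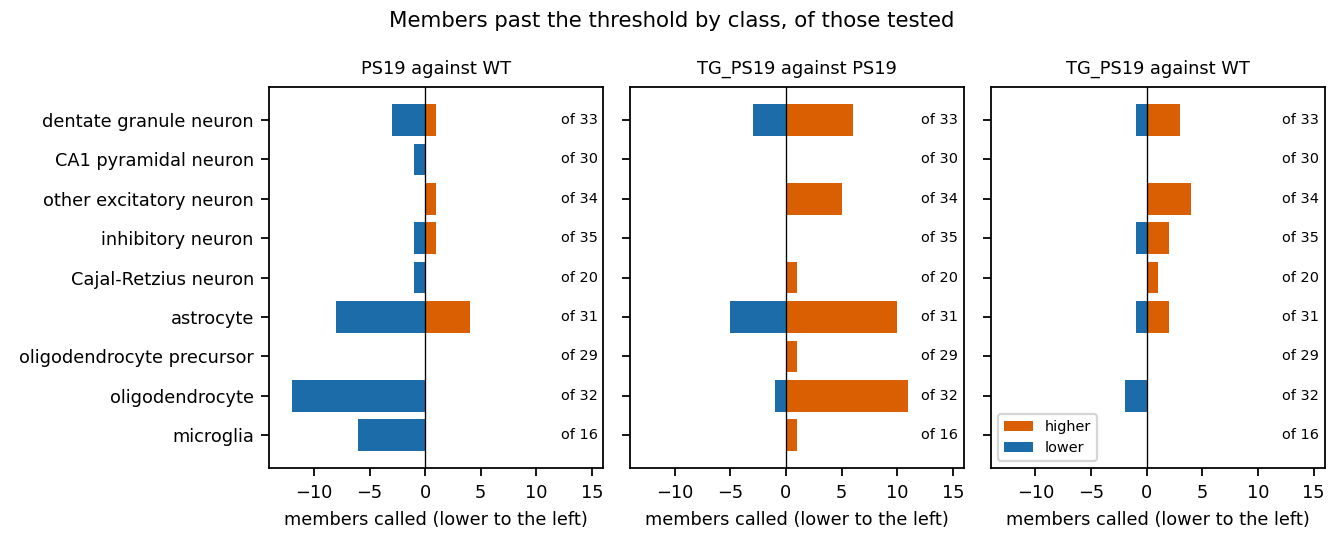
Number of the 35 genes called higher (orange, to the right) or lower (blue, to the left) at an adjusted p under 0.05 in each of the 9 tested classes (rows), for the 3 comparisons, with the number tested at the right. Astrocytes and oligodendrocytes hold the most calls in PS19 against WT (12 each), and all 12 in oligodendrocytes are lower.

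These calls depended on the test and on depth. DESeq2 called 7, 8 and 1 of 260 pairs in the 3 comparisons, beside 342, 741 and 145 of 119984 over all genes. Thinning every nucleus to 1000 UMIs left 11, 9 and 1 of 196 pairs, beside 797, 1232 and 380 of 63167. Among the up to 20 pairs of smallest adjusted p in each comparison, which are named throughout, 3 of 20, 4 of 20 and 1 of 17 stayed past the threshold under all alternative settings that gave a test, apart from those added after seeing the data. They were Shisa6, Grin2b and Grm5 in astrocytes in PS19 against WT, Shisa6, Grm3, Grin2b and Gria1 in astrocytes in TG_PS19 against PS19, and Shisa9 in other excitatory neurons in TG_PS19 against WT. With the TG_PS19 library cut to its nuclei with Y-linked UMIs alone, 31 of 254 pairs were called against PS19 and 15 against WT, some of them new. Over all genes 4440 and 1612 of 111428 were called. The cut was made in TG_PS19 alone and left 218 of 993 dentate granule and 18 of 117 Cajal-Retzius nuclei. Finding a Y-linked UMI also depends on depth, so sex and the loss of nuclei cannot be told apart. Calls against PS19 that were lost in that setting were Gria2, Grin2a, Grin2d, Grik4, Grm5 and Neto2 in astrocytes, Gria1, Grin2c, Grik3, Grm5, Grm7, Shisa9 and Neto2 in oligodendrocytes, Grin3a, Grm7, Shisa6, Cnih2 and Cnih3 in dentate granule neurons, Grm3 and Neto2 in other excitatory neurons, and Grm5 in microglia. Calls against WT that were lost were Grm3, Grik3, Cacng8 and Shisa6 in dentate granule neurons, Grin2c and Grm8 in inhibitory neurons, Grin2a in oligodendrocytes and Grin2d in other excitatory neurons. Where a single nucleus held 25% or more of the UMIs of a called gene in a class and library, of at least 20 UMIs, the class was also fitted without that nucleus, an alternative chosen after seeing the data, and the result is given with each gene.

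RNA of other classes moved with most of the glial results and is given here once. The 6 pan-neuronal genes (Rbfox3, Snap25, Syt1, Snhg11, Meg3 and Celf4), which astrocytes, oligodendrocytes and microglia should hold at low levels, summed in oligodendrocytes to 279 CPM in WT, 127 and 79.8 in the PS19 pair and 180.0 in TG_PS19. In microglia the sums were 378, 157, 89.9 and 258 CPM, and in astrocytes 201, 102, 109 and 129 CPM, in the same order of libraries. Every gene of the list had UMIs in these sums except Rbfox3, which was at 0 in microglia of PS19 replicate 1. In PS19 against WT 5 of the 6 were called lower in oligodendrocytes, at a median log2 fold of -1.43, 2 of 5 tested in microglia (-1.71) and 3 of 6 in astrocytes (-1.26). In oligodendrocyte precursors their median log2 fold was -0.23, and the sums ranged from 772 to 964 CPM. Only 4.26% to 9.16% of precursor nuclei per library lacked all 6 genes. RNA of the precursors themselves and RNA of other classes therefore cannot be told apart there by this list. The astrocyte marker list likewise summed in oligodendrocytes to 535 CPM in WT, 262 and 221 in the PS19 pair and 399 in TG_PS19. The number of barcodes per library was also highest in WT (12762), followed by TG_PS19 (9719) and the PS19 pair (4643 and 4924).

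The part of such RNA in the glial results was not tested as a whole. When glial nuclei with any UMI of the pan-neuronal list were left out, an alternative chosen after seeing the data, 1906 of 3265 WT oligodendrocytes and 1384 of 1829 and 1445 of 1843 PS19 oligodendrocytes remained. In them 12 of 29 tested genes were called lower in PS19 than in WT, beside 548 of 14699 over all genes. In microglia 6 of 9 were called lower, beside 288 of 9097. In astrocytes 4 of 30 were higher and 5 lower, beside 386 and 280 of 15189. In TG_PS19 against WT 0 of 29 were called lower and 1 higher in oligodendrocytes, beside 140 and 267 of 14699 over all genes. In astrocytes 0 of 30 were lower and 2 higher, beside 61 and 193 of 15189. At medians of 1910.5 to 2975 UMIs in the oligodendrocytes kept, a nucleus can lack all 6 genes by sampling. Nuclei chosen this way can therefore still hold RNA of other classes. The make-up of 2 classes also differed. An astrocyte cluster led by Gfap and Myoc (cluster 7) held 15.8% of astrocytes in WT, 41.03% and 40.4% in PS19 and 14.97% in TG_PS19. Over all genes PS19 against WT called 560 of 12572 in cluster 7, 161 of 14675 in astrocyte cluster 0 and 108 of 6900 in astrocyte cluster 19. In TG_PS19 against PS19 the counts were 713, 415 and 110. A missing call in cluster 0 therefore does not place a change in cluster 7, and differences between these clusters were not tested. A microglial cluster led by Ly86 and Fyb held 4.10% of microglia in WT, 69.5% and 75.4% in PS19 and 1.46% in TG_PS19.

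**Figure D3:**
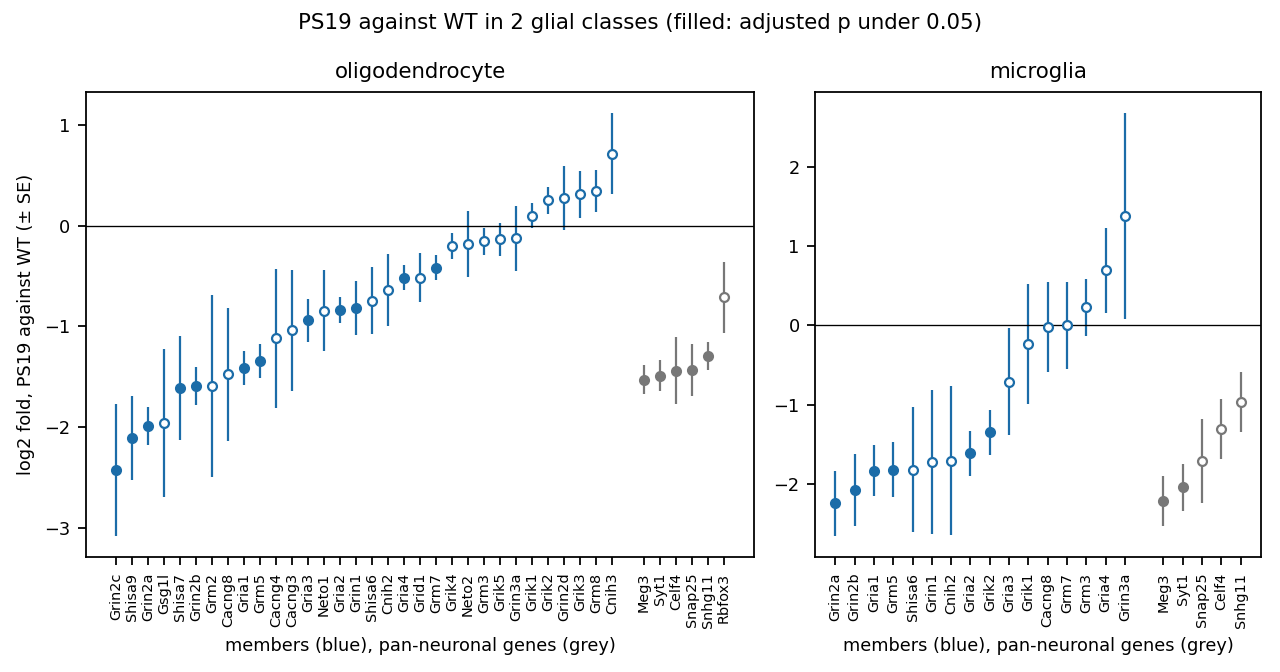
Log2 fold of PS19 against WT (vertical axis, with its standard error) for the tested genes of the set (blue) and the pan-neuronal genes (grey) in oligodendrocytes and microglia, filled where the adjusted p is under 0.05. The pan-neuronal genes lie at negative folds in both classes, from -0.71 to -1.53 in oligodendrocytes and from -0.97 to -2.22 in microglia. The called genes of the set lie from -0.42 (Grm7) to -2.42 (Grin2c) in oligodendrocytes and from -1.35 (Grik2) to -2.24 (Grin2a) in microglia.

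AMPA receptors carry most fast excitatory transmission, and the Gria2 subunit makes them impermeable to calcium. Gria1 (GRCm38 chromosome 11, 57011387 to 57330244) averaged 3206 CPM (2945 to 3412) in CA1 pyramidal neurons and 2606 CPM (2432 to 2709) in dentate granule neurons, and Gria2 (chromosome 3, 80681450 to 80802835) 3113 CPM (2939 to 3224) and 2504 CPM (2197 to 2837). Gria2 was also held by glia, at 2018 CPM (1801 to 2220.0) in astrocytes and 1572 CPM (1468 to 1743) in oligodendrocyte precursors. Gria3 was highest in CA1 pyramidal neurons, at 969 CPM (902 to 1025), and Gria4 in inhibitory neurons, at 1681 CPM (1423 to 1844), followed by Cajal-Retzius neurons (1112 CPM (954 to 1261)) and oligodendrocyte precursors (1054 CPM (981 to 1112)). Over the 9 classes the 4 subunits gave 6 calls of 35 tested pairs in PS19 against WT, all lower, beside 2.83% of all pairs. They gave 6 in TG_PS19 against PS19 (5.43% of all pairs) and 2 in TG_PS19 against WT (2.41%), each in glia. In neurons neither edgeR nor DESeq2 called any of them, and in PS19 against WT 1 pair had an unadjusted p under 0.05 in each of dentate granule, CA1 pyramidal and other excitatory neurons.

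In astrocytes Gria1 was at 206 CPM in WT, 256 and 292 in the PS19 pair and 150.0 in TG_PS19. The TG_PS19 value lay below WT and both PS19 values, and it was lower than PS19 by edgeR (log2 fold -0.69 ± 0.14, adjusted p = 3.9e-05). PS19 against WT was not called (log2 fold 0.39 ± 0.14, adjusted p = 0.067). Fitted by cluster, in cluster 7 PS19 was lower than WT (log2 fold -0.62 ± 0.18, adjusted p = 0.022) and TG_PS19 did not differ by test from PS19 (log2 fold 0.18 ± 0.20, adjusted p = 0.71). In cluster 0 TG_PS19 was lower (log2 fold -0.71 ± 0.16, adjusted p = 0.0017). The difference between the clusters was not tested. Astrocyte Gria4, a subunit of fast-gating receptors, was at 15.2 CPM in WT, 13.2 and 13.1 in the PS19 pair and 31.6 in TG_PS19, highest in TG_PS19. It was higher in TG_PS19 than in PS19 (log2 fold 1.44 ± 0.24, adjusted p = 2.2e-07) and than in WT (log2 fold 1.20 ± 0.24, adjusted p = 0.0002). A single TG_PS19 nucleus held 84 of the 167 UMIs. Without it TG_PS19 was at 15.7 CPM, and neither difference was called (log2 fold 0.43 ± 0.28, adjusted p = 0.42 against PS19 and log2 fold 0.20 ± 0.28, adjusted p = 0.88 against WT). By cluster, with that nucleus included, Gria4 was called in cluster 7, at 21.2 CPM in WT, 13.3 and 8.99 in the PS19 pair and 118 in TG_PS19 (log2 fold 3.60 ± 0.31, adjusted p = 2.6e-27), and not in cluster 0 (log2 fold 0.14 ± 0.32, adjusted p = 0.93).

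In oligodendrocytes all 4 AMPA subunits fell in PS19, and the PS19 values lay below WT and TG_PS19 for each. Gria1 was at 47.4 CPM in WT, 19.4 and 15.3 in the PS19 pair and 27.7 in TG_PS19 (log2 fold -1.41 ± 0.17, adjusted p = 1.9e-14). TG_PS19 stayed below WT (log2 fold -0.68 ± 0.19, adjusted p = 0.014), a call lost in the nuclei without pan-neuronal UMIs. Gria2 was at 125 CPM in WT, 75.3 and 60.4 in the PS19 pair and 95.9 in TG_PS19 (log2 fold -0.84 ± 0.13, adjusted p = 1.4e-08). TG_PS19 exceeded PS19 (log2 fold 0.56 ± 0.13, adjusted p = 0.00082). Gria3, on the X chromosome, was at 22.1 CPM in WT, 12.7 and 9.87 in the PS19 pair and 13.1 in TG_PS19 (log2 fold -0.94 ± 0.22, adjusted p = 0.00053). Gria4 was at 283 CPM in WT, 183 and 199 in the PS19 pair and 268 in TG_PS19 (log2 fold -0.52 ± 0.12, adjusted p = 0.00085). TG_PS19 was again higher than PS19 (log2 fold 0.54 ± 0.12, adjusted p = 0.00037). The levels of Gria1 to Gria3 in oligodendrocytes were between 14.5 and 89.1 CPM on average, far below those of neurons. In microglia Gria1 and Gria2 were called lower in PS19, at 15.7 to 64.7 CPM and 29.95 to 120.3 CPM over the libraries. Without a nucleus that held 12 of the 32 Gria2 UMIs in PS19 replicate 1, Gria2 was lower in PS19 (log2 fold -1.96 ± 0.28, adjusted p = 3.2e-10) and was called in TG_PS19 against PS19 as well (log2 fold 1.21 ± 0.33, adjusted p = 0.0050). Gria2 in astrocytes was called higher in TG_PS19 than in PS19 (log2 fold 0.39 ± 0.13, adjusted p = 0.039).

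NMDA receptors need the Grin1 subunit together with Grin2 or Grin3 subunits and act as detectors of coincident activity. Grin1 averaged 426 CPM (362 to 503) in CA1 pyramidal neurons, a level that overlapped that of dentate granule neurons. Grin2a (chromosome 16, 9567898 to 9995560) reached 4041 CPM (3803 to 4366) in CA1 pyramidal neurons and 3150.5 CPM (2882 to 3452) in dentate granule neurons, and Grin2b (chromosome 6, 135713233 to 136173511) 2835 CPM (2667 to 3049.7) and 1998 CPM (1906 to 2084). Grin2c (chromosome 11, 115249169 to 115267243) had the sharpest class pattern of all 35 genes: it averaged 229 CPM (192 to 258) in astrocytes and 12.1 CPM (2.96 to 23.95) in endothelial cells, the next class, a ratio of 18.96. Grin2d was highest in inhibitory neurons, at 67.2 CPM (47.3 to 80.4), and Grin3a, a subunit that lowers calcium entry, in oligodendrocyte precursors, at 601 CPM (564 to 646).

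In astrocytes Grin2b was at 326 CPM in WT, 187 and 182 in the PS19 pair and 366 in TG_PS19. Both PS19 values lay below WT and TG_PS19. It fell in PS19 (log2 fold -0.85 ± 0.13, adjusted p = 2.3e-08). TG_PS19 was higher than PS19 (log2 fold 1.17 ± 0.13, adjusted p = 5.4e-16). Within cluster 7 the fall was called (log2 fold -1.18 ± 0.19, adjusted p = 3.7e-07), where 560 of 12572 genes were called. Within cluster 0 it was not (log2 fold -0.46 ± 0.15, adjusted p = 0.094), where 161 of 14675 genes were called. The TG_PS19 difference from PS19 was called in both (log2 fold 1.27 ± 0.21, adjusted p = 1.7e-07 and log2 fold 0.87 ± 0.15, adjusted p = 8e-07). Grin2a was at 29.3 CPM in WT, 9.46 and 11.4 in the PS19 pair and 19.5 in TG_PS19, lower in PS19 (log2 fold -1.50 ± 0.24, adjusted p = 7.7e-08), in cluster 0 (log2 fold -1.52 ± 0.31, adjusted p = 0.00027) as in cluster 7 (log2 fold -1.72 ± 0.39, adjusted p = 0.0009). TG_PS19 was above PS19 (log2 fold 1.06 ± 0.27, adjusted p = 0.0018). Grin3a in cluster 7 was at 318 CPM in WT, 165 and 163 in the PS19 pair and 334 in TG_PS19, with the PS19 pair lowest. There PS19 was below WT (log2 fold -0.98 ± 0.19, adjusted p = 2.2e-05) and TG_PS19 above PS19 (log2 fold 1.19 ± 0.19, adjusted p = 2e-07). Over all astrocytes the PS19 fold was not called (log2 fold -0.19 ± 0.14, adjusted p = 0.61). Grin2c, the astrocyte subunit, was at 258 CPM in WT, 217 and 192 in the PS19 pair and 249 in TG_PS19. It was not called in PS19 against WT (log2 fold -0.36 ± 0.13, adjusted p = 0.089). It was called higher in TG_PS19 than in PS19 (log2 fold 0.47 ± 0.14, adjusted p = 0.0095).

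In oligodendrocytes Grin2a was at 41.7 CPM in WT, 11.2 and 9.36 in the PS19 pair and 25.3 in TG_PS19. Both PS19 values lay far below WT and TG_PS19, and the fall in PS19 had the smallest adjusted p of all 39 calls (log2 fold -1.98 ± 0.19, adjusted p = 9.2e-23). TG_PS19 lay between the groups, above PS19 (log2 fold 1.36 ± 0.21, adjusted p = 6.7e-09) and below WT (log2 fold -0.62 ± 0.19, adjusted p = 0.047). The latter call was kept by 6 of 11 alternative settings and lost in the nuclei without pan-neuronal UMIs. Grin2b followed the same order, at 37.2 CPM in WT, 11.2 and 12.6 in the PS19 pair and 25.3 in TG_PS19 (log2 fold -1.59 ± 0.19, adjusted p = 1e-14 for PS19 against WT and log2 fold 1.14 ± 0.20, adjusted p = 1.5e-06 for TG_PS19 against PS19). The falls of Grin2a and Grin2b stood in each of clusters 1, 3 and 4 when fitted alone, at log2 folds of -1.82, -2.00 and -1.99 for Grin2a and -1.51, -1.89 and -1.52 for Grin2b. They were not called in cluster 9, where 16 of 7669 genes were called. Both genes were low in oligodendrocytes, at 21.9 and 21.6 CPM on average. The 6 pan-neuronal genes had log2 folds of -0.71 to -1.53 there, the last for Meg3 (± 0.14). Whether the falls of Grin2a and Grin2b differ from theirs was not tested. In microglia Grin2a and Grin2b were called lower as well, at 5 to 53 UMIs per library, and the microglial Grin2b fold was -3.06 and -1.39 without PS19 replicate 1 and 2 in turn. Grin1, the obligatory subunit, was called lower in PS19 in astrocytes (log2 fold -1.17 ± 0.29, adjusted p = 0.0017) and oligodendrocytes (log2 fold -0.82 ± 0.26, adjusted p = 0.032). Oligodendrocyte Grin2c, with 25 UMIs in WT, 5 and 2 in PS19 and 20 in TG_PS19, was called lower in PS19 (log2 folds of -3.33 and -1.78 without PS19 replicate 1 and 2 in turn). It was called in TG_PS19 against PS19 as well (log2 fold 2.26 ± 0.68, adjusted p = 0.015), but that fold turned to -0.22 in the TG_PS19 nuclei with Y-linked UMIs. Grin2d in astrocytes, at 10 to 44 UMIs per library, was called higher in TG_PS19 than in PS19. In PS19 against WT the NMDA subunits gave 11 calls of 46 tested pairs, all lower, beside 2.83% of all pairs. They gave 8 in TG_PS19 against PS19 (5.43% of all pairs), of which 7 were higher, and 3 in TG_PS19 against WT (2.41%).

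In neurons 4 NMDA subunits were called. Inhibitory neurons had 34 UMIs of Grin2c in WT, against 2 and 1 in PS19 and 2 in TG_PS19, or 28.9 CPM in WT, 3.92 and 1.03 in the PS19 pair and 1.66 in TG_PS19. The WT UMIs came from 26 nuclei with at most 3 in any of them. Against WT, PS19 was lower (log2 fold -3.73 ± 0.82, adjusted p = 0.0020) and so was TG_PS19 (log2 fold -3.95 ± 0.95, adjusted p = 0.0048), and without PS19 replicate 1 and 2 in turn the former was -4.64 and -2.84. The astrocyte marker list, from the class that holds Grin2c, summed to 349 CPM in these WT neurons, 219 and 231 in the PS19 pair and 410.0 in TG_PS19. Cajal-Retzius neurons, early-born cells of the outer layer, had 47 UMIs of Grin2a in WT and 4, 3 and 10 in the others (log2 fold -2.86 ± 0.54, adjusted p = 0.00015). A single WT nucleus held 28 of the 47, without it the fold was not called (log2 fold -1.59 ± 0.86, adjusted p = 1.00), and at clustering resolution 2.0 the log2 fold was 0.01. In other excitatory neurons Grin2d was at 10.98 CPM in WT, 20.3 and 18.4 in the PS19 pair and 22.04 in TG_PS19, lowest in WT and called in TG_PS19 against WT (log2 fold 1.04 ± 0.33, adjusted p = 0.048), which 3 of 10 alternative settings kept. In dentate granule neurons Grin3a was called lower in TG_PS19 than in PS19, with WT and both PS19 values from 35.9 to 52.1 CPM and TG_PS19 at 30.2 CPM. Its log2 fold was -0.21 and -0.68 without PS19 replicate 1 and 2 in turn.

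**Figure D4:**
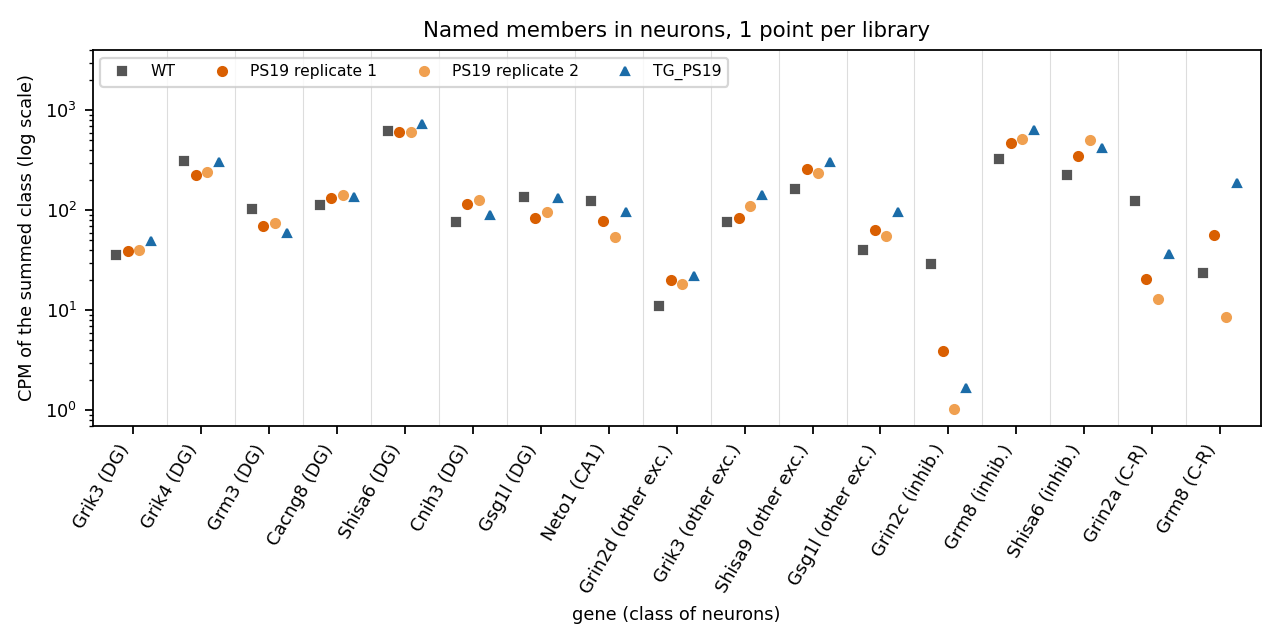
Level in each library (1 point each, CPM of the summed class on a log axis) of the genes named in neuron classes: dentate granule (DG), CA1 pyramidal, other excitatory, inhibitory and Cajal-Retzius (C-R) neurons. Dentate Cnih3 stands higher in both PS19 libraries (117 and 126 CPM) than in WT and TG_PS19, and dentate Gsg1l and Grik4 stand lower in them, while other excitatory Shisa9 and Gsg1l are highest in TG_PS19.

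Kainate receptors modulate both release and excitability, and Grik4 and Grik5 encode their high-affinity subunits. Grik1 (chromosome 16, 87895900 to 88290265) marked inhibitory neurons, at 1679.5 CPM (1642 to 1709.5), with 473 CPM (434 to 549.5) in oligodendrocytes, the next class. Grik2 was high in inhibitory (2289 CPM (2102 to 2646)) and dentate granule neurons (2179 CPM (1964 to 2394)), whose ranges overlapped. Grik4 (chromosome 9, 42518135 to 42944493) was highest in other excitatory neurons, the class that takes in CA3, at 412 CPM (388 to 432). Grik3 averaged 109 CPM (101 to 119.8) in oligodendrocyte precursors and overlapped there with other excitatory neurons, and Grik5 averaged 76.4 to 113 CPM in the neuron classes, astrocytes and oligodendrocyte precursors and was called nowhere. The kainate subunits gave 4 calls of 40 tested pairs in PS19 against WT (1 higher, 3 lower), beside 2.83% of all pairs. They gave 6 in TG_PS19 against PS19 (5.43% of all pairs) and 2 in TG_PS19 against WT (2.41%).

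Dentate granule neurons had Grik4 at 309.5 CPM in WT, 228 and 241 in the PS19 pair and 301 in TG_PS19. The PS19 pair lay below both other libraries, and Grik4 fell in PS19 (log2 fold -0.38 ± 0.10, adjusted p = 0.0093). TG_PS19 was higher than PS19 (log2 fold 0.45 ± 0.10, adjusted p = 0.00027). Grik2 in the same neurons was at 2337 CPM in WT, 1964 and 2022 in the PS19 pair and 2394 in TG_PS19 and was called in TG_PS19 against PS19 (log2 fold 0.36 ± 0.11, adjusted p = 0.014). Grik3 was at 35.97 CPM in WT, 38.9 and 40.3 in the PS19 pair and 48.97 in TG_PS19, with the lowest value in WT and a call in TG_PS19 against WT (log2 fold 0.56 ± 0.15, adjusted p = 0.0092) that scaling by library totals ended (0.45). In other excitatory neurons Grik3 was lowest in WT and highest in TG_PS19, at 76.1 CPM in WT, 83.6 and 111 in the PS19 pair and 141 in TG_PS19 (log2 fold 0.93 ± 0.17, adjusted p = 2.5e-05 for TG_PS19 against WT). By cluster that difference was called in cluster 18 alone (log2 fold 1.28 ± 0.38, adjusted p = 0.049), at 13.7 CPM in WT and 32.6 CPM in TG_PS19. Cluster 22, which holds Grik3 at 292 to 326 CPM, gave 20% of these neurons in WT and 32.3% in TG_PS19. In TG_PS19 against WT 23 of 8908 genes were called in cluster 22 and 233 of 12823 in cluster 18.

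In astrocytes Grik1 was at 51.99 CPM in WT, 22.6 and 34.4 in the PS19 pair and 53.3 in TG_PS19. Both PS19 values lay below WT and TG_PS19, and it fell in PS19 (log2 fold -0.86 ± 0.18, adjusted p = 7.8e-05). It was higher in TG_PS19 than in PS19 (log2 fold 1.05 ± 0.18, adjusted p = 9.2e-07). Grik4 went the other way, at 28.9 CPM in WT, 51.02 and 38.5 in the PS19 pair and 21.5 in TG_PS19, highest in the PS19 pair. It was called lower in TG_PS19 than in PS19 (log2 fold -0.86 ± 0.21, adjusted p = 0.00096) and higher in PS19 than in WT (log2 fold 0.58 ± 0.19, adjusted p = 0.034). In none of the 3 astrocyte clusters fitted alone was either Grik4 difference called, and its level in cluster 7 of every library exceeded that in cluster 0 (57.4 CPM in WT, 79.97 and 58.1 in the PS19 pair and 55.4 in TG_PS19 against 22.9 CPM in WT, 24.8 and 19.3 in the PS19 pair and 15.3 in TG_PS19). In oligodendrocytes Grik3 was called lower in TG_PS19 than in PS19, at 12.5 CPM in WT, 14.8 and 15.2 in the PS19 pair and 7.50 in TG_PS19. Microglial Grik2 was called lower in PS19, with 72 UMIs in WT and 17 to 24 in the other 3 libraries. Without a nucleus that held 6 of the 24 in PS19 replicate 2 it was called as well (log2 fold -1.56 ± 0.33, adjusted p = 6.9e-05).

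The delta receptor Grid1 (chromosome 14, 34820108 to 35583379), which binds cerebellin and neurexin partners at synapses, averaged 806 CPM (738 to 849) in oligodendrocyte precursors and 518 CPM (449.7 to 594) in other excitatory neurons. Astrocytes held it at 309.6 CPM in WT, 204 and 204 in the PS19 pair and 277 in TG_PS19. The PS19 libraries lay below the other 2, and Grid1 fell in PS19 (log2 fold -0.63 ± 0.13, adjusted p = 0.00011). TG_PS19 exceeded PS19 (log2 fold 0.62 ± 0.13, adjusted p = 0.00013). Fitted alone, the fall was called in cluster 7 (log2 fold -0.61 ± 0.19, adjusted p = 0.040) and not in cluster 0 (log2 fold -0.29 ± 0.14, adjusted p = 0.55).

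Of the metabotropic receptors, Grm5 couples to phospholipase C, and Grm2, Grm3, Grm4, Grm7 and Grm8 inhibit adenylyl cyclase. Grm5 (chromosome 7, 87584168 to 88134907) was highest in CA1 pyramidal neurons, at 2984 CPM (2862 to 3089.5). Grm3 (chromosome 5, 9485541 to 9725170) was highest in mural cells (2842 CPM (2405 to 3343)), then oligodendrocytes (1634 CPM (1369.8 to 1962)) and astrocytes (1224 CPM (878 to 1784)), and the neuron classes averaged 76.8 to 245 CPM. Grm7 (chromosome 6, 110645581 to 111567230) was likewise highest in mural cells, at 5213 CPM (4204 to 6182), followed by other excitatory neurons (2294 CPM (2094 to 2422)). Grm8 was highest in other excitatory and inhibitory neurons, whose ranges overlapped (596 CPM (513 to 681) and 485 CPM (326 to 633)). Grm2 reached 21.6 CPM (18.1 to 26.3) in dentate granule neurons and Grm4 15.7 CPM (11.3 to 24.1) in inhibitory neurons, and neither was called in any class. The 6 genes gave 6 calls of 41 tested pairs in PS19 against WT (1 higher, 5 lower), beside 2.83% of all pairs. They gave 9 in TG_PS19 against PS19 (8 higher, 1 lower; 5.43% of all pairs) and 4 in TG_PS19 against WT (2.41%).

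Astrocyte Grm3, the main metabotropic receptor of mature astrocytes, was at 1289 CPM in WT, 878 and 947 in the PS19 pair and 1784 in TG_PS19. The TG_PS19 library had the highest and the PS19 pair the lowest values. Grm3 fell in PS19 (log2 fold -0.53 ± 0.13, adjusted p = 0.0019). TG_PS19 was higher than PS19 (log2 fold 1.15 ± 0.13, adjusted p = 1.9e-16) and than WT (log2 fold 0.62 ± 0.15, adjusted p = 0.0054). In TG_PS19 against PS19 the difference was called in each of the 3 astrocyte clusters (0.74, 1.46 and 1.27 for clusters 0, 7 and 19). The fall in PS19 was called in cluster 7 (log2 fold -0.59 ± 0.19, adjusted p = 0.042) and not in cluster 0 (log2 fold -0.17 ± 0.13, adjusted p = 0.84). Astrocyte Grm5, a receptor of young and of reactive astrocytes, was at 137 CPM in WT, 229 and 243 in the PS19 pair and 131 in TG_PS19. Here the PS19 pair had the highest values: Grm5 rose in PS19 (log2 fold 0.76 ± 0.14, adjusted p = 4.3e-06). It was lower in TG_PS19 than in PS19 (log2 fold -0.67 ± 0.14, adjusted p = 9.4e-05), a difference of -0.23 in the TG_PS19 nuclei with Y-linked UMIs alone. The rise was called in cluster 7, at 67.6 CPM in WT, 269 and 282 in the PS19 pair and 83.1 in TG_PS19 (log2 fold 2.002 ± 0.22, adjusted p = 9.2e-16), and in cluster 19 (log2 fold 1.01 ± 0.29, adjusted p = 0.039). Cluster 0 gave 0.37 with no call.

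**Figure D5:**
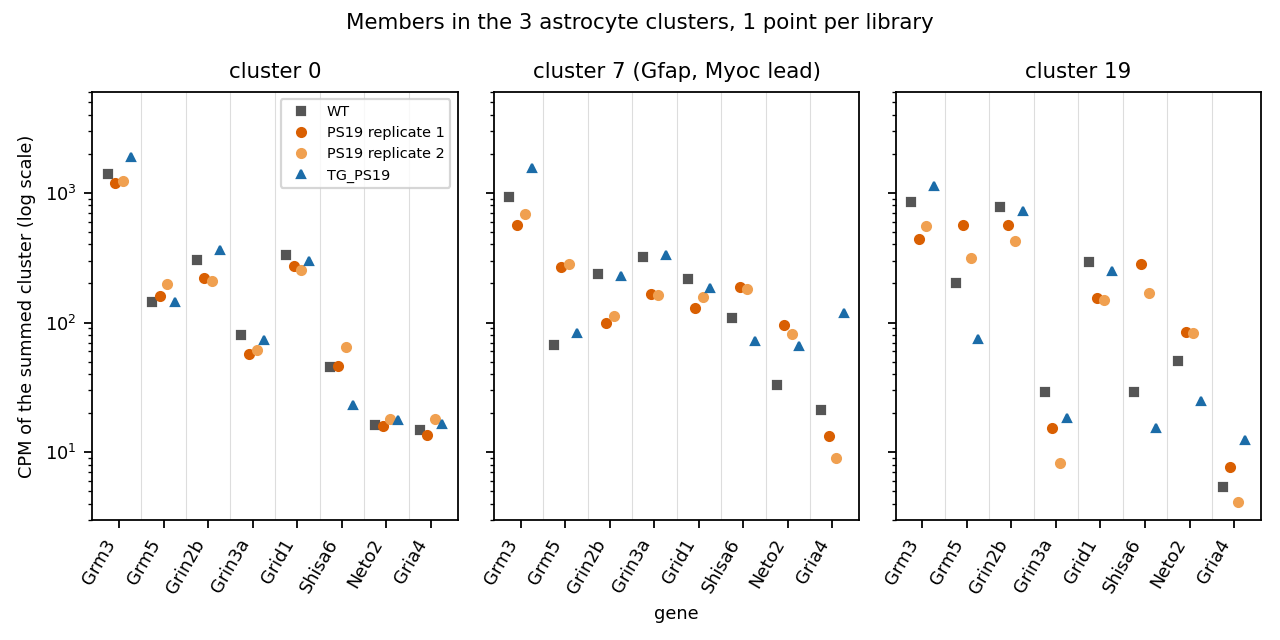
Level of 8 genes in each library (1 point each, CPM of the summed cluster on a log axis) in the 3 astrocyte clusters, of which cluster 7 is led by Gfap and Myoc. In cluster 7 Grm5 is at 269 and 282 CPM in PS19 against 67.6 CPM in WT and 83.1 CPM in TG_PS19, and Grin2b and Grin3a are lower in PS19 than in both other groups.

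In oligodendrocytes Grm3 was at 1672 CPM in WT, 1369.8 and 1534 in the PS19 pair and 1962 in TG_PS19. It was not called in PS19 against WT (log2 fold -0.16 ± 0.14, adjusted p = 0.62). It was called higher in TG_PS19 than in PS19 (log2 fold 0.49 ± 0.13, adjusted p = 0.0053). Grm7 was at 630.2 CPM in WT, 418 and 495 in the PS19 pair and 655 in TG_PS19, lower in the PS19 pair than in either other library. It fell in PS19 (log2 fold -0.42 ± 0.13, adjusted p = 0.018). It was higher in TG_PS19 than in PS19 (log2 fold 0.57 ± 0.12, adjusted p = 0.00017). Grm5, low in this class, was at 44.3 CPM in WT, 20.7 and 13.6 in the PS19 pair and 32.2 in TG_PS19, with the same order (log2 fold -1.34 ± 0.17, adjusted p = 1e-12 and log2 fold 0.99 ± 0.18, adjusted p = 3.9e-06). Without a nucleus of PS19 replicate 1 that held 31 of its 98 UMIs, both were called (log2 fold -1.63 ± 0.18, adjusted p = 1.3e-17 and log2 fold 1.27 ± 0.19, adjusted p = 1.8e-09). Microglial Grm5 had 49 UMIs in WT, 9 and 11 in PS19 and 35 in TG_PS19 and was called in both comparisons with PS19. In the microglial cluster that holds most WT and TG_PS19 nuclei (cluster 8) the PS19 fold was -0.40 with no call. There 0 of 8841 genes were called, with 79 and 70 nuclei in the PS19 pair, so the missing call cannot place the fall.

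Neuron classes carried further calls of Grm3, Grm7 and Grm8. Dentate granule Grm3 was at 103 CPM in WT, 69.6 and 75.4 in the PS19 pair and 58.9 in TG_PS19. It was highest in WT and fell in PS19 (log2 fold -0.49 ± 0.11, adjusted p = 0.0014). It was lower in TG_PS19 than in WT (log2 fold -0.70 ± 0.13, adjusted p = 1.1e-05). Grm3 in other excitatory neurons was called higher in TG_PS19 than in PS19, with values of 203 to 302 CPM over the libraries. Cluster 18 alone carried that call (log2 fold 1.11 ± 0.21, adjusted p = 4.4e-05). Over all genes 370 of 12823 were called there, and 152 of 10247 and 14 of 8908 in clusters 17 and 22. Inhibitory Grm8, a presynaptic receptor, was at 326 CPM in WT, 470.4 and 512 in the PS19 pair and 633 in TG_PS19. It was lowest in WT and called in TG_PS19 against WT (log2 fold 1.04 ± 0.27, adjusted p = 0.012). In Cajal-Retzius neurons Grm8 had 9 UMIs in WT, 11 and 2 in PS19 and 51 in TG_PS19, of which 37 lay in a single nucleus (log2 fold 2.63 ± 0.45, adjusted p = 6.5e-06 against PS19). Without that nucleus it was not called (log2 fold 0.80 ± 0.81, adjusted p = 0.99 against PS19 and log2 fold 1.19 ± 0.91, adjusted p = 0.99 against WT). With it kept, the fold against PS19 was 4.39 without PS19 replicate 1 and 1.78 without replicate 2. Dentate Grm7 was called higher in TG_PS19 than in PS19, at 1736 and 1790 CPM in the PS19 pair and 2064 in TG_PS19.

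Auxiliary subunits of AMPA receptors showed distinct class patterns. Cacng4, of the regulatory protein family, averaged 596 CPM (569 to 634) in oligodendrocyte precursors and 56.3 CPM (39.8 to 69.8) in fibroblasts, the next class, a ratio of 10.6, and was called nowhere. Cacng8 was highest in CA1 pyramidal neurons (182 CPM (153 to 194)), Cacng3 in dentate granule neurons (124 CPM (110.3 to 134)), Cacng2, or stargazin, in inhibitory neurons (99.7 CPM (92.1 to 109.9)) and Cacng5 in Cajal-Retzius neurons (39.2 CPM (20.4 to 51.2)). Shisa9 (chromosome 16, 11984113 to 12270902), first described as CKAMP44 of dentate granule neurons, averaged 635 CPM (611 to 690.1) there and 247 CPM (163 to 309) in inhibitory neurons. Shisa6 (chromosome 11, 66211725 to 66525964) and Shisa7 were highest in CA1 pyramidal neurons (814 CPM (788 to 873) and 80.4 CPM (77.5 to 86.2)). The cornichons Cnih2 and Cnih3 were highest in CA1 pyramidal (56.5 CPM (41.5 to 68.9)) and dentate granule neurons (102 CPM (76.2 to 126)), and Gsg1l, which slows recovery of the channel from desensitisation, in dentate granule neurons (113 CPM (84.3 to 137)). These 11 genes gave 8 calls of 74 tested pairs in PS19 against WT (4 higher, 4 lower), beside 2.83% of all pairs. They gave 11 in TG_PS19 against PS19 (8 higher, 3 lower), beside 5.43%, and 6 in TG_PS19 against WT, beside 2.41%.

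In dentate granule neurons Cnih3 (chromosome 1, 181352628 to 181460641) was at 76.2 CPM in WT, 117 and 126 in the PS19 pair and 89.3 in TG_PS19. Both PS19 values exceeded the other 2, and Cnih3 rose in PS19 (log2 fold 0.69 ± 0.11, adjusted p = 2.7e-07). TG_PS19 was lower than PS19 (log2 fold -0.35 ± 0.11, adjusted p = 0.027). Gsg1l (chromosome 7, 125878420 to 126082411) had the opposite order, at 137 CPM in WT, 84.3 and 96.00 in the PS19 pair and 133 in TG_PS19: it fell in PS19 (log2 fold -0.58 ± 0.11, adjusted p = 1.9e-05). TG_PS19 exceeded PS19 (log2 fold 0.65 ± 0.11, adjusted p = 2.9e-07). Dentate Shisa6 was at 620.2 CPM in WT, 613 and 609 in the PS19 pair and 732 in TG_PS19, higher in TG_PS19 than in WT (log2 fold 0.35 ± 0.12, adjusted p = 0.045). Cacng8 was at 112 CPM in WT, 134 and 142 in the PS19 pair and 136 in TG_PS19, lowest in WT and called in TG_PS19 against WT (log2 fold 0.39 ± 0.12, adjusted p = 0.027). Cnih2 and Cacng3 were called in TG_PS19 against PS19, Cnih2 lower (log2 fold -0.47 ± 0.14, adjusted p = 0.017, with -0.20 and -0.74 without PS19 replicate 1 and 2 in turn) and Cacng3 higher (log2 fold 0.32 ± 0.11, adjusted p = 0.036). The TG_PS19 against WT calls of Shisa6 and Cacng8 were lost when libraries were scaled by totals (0.24 for Shisa6 and 0.28 for Cacng8).

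Other excitatory neurons had Shisa9 at 162 CPM in WT, 257 and 239 in the PS19 pair and 306 in TG_PS19, lowest in WT. It rose in PS19 (log2 fold 0.56 ± 0.15, adjusted p = 0.022). It was higher in TG_PS19 than in WT (log2 fold 0.95 ± 0.16, adjusted p = 2.1e-06). Gsg1l was at 40.5 CPM in WT, 63.4 and 55.3 in the PS19 pair and 96.02 in TG_PS19, again lowest in WT. It was higher in TG_PS19 than in WT (log2 fold 1.28 ± 0.19, adjusted p = 2.7e-08) and than in PS19 (log2 fold 0.79 ± 0.17, adjusted p = 0.00021). Cluster 18 carried both: there Shisa9 was at 112 CPM in WT, 223 and 195 in the PS19 pair and 245 in TG_PS19 (log2 fold 1.16 ± 0.20, adjusted p = 7.7e-06 for TG_PS19 against WT) and Gsg1l at 18.3 CPM in WT, 38.5 and 21.4 in the PS19 pair and 73.8 in TG_PS19 (log2 fold 2.04 ± 0.31, adjusted p = 4.9e-08). Clusters 17 and 22 gave no call for either gene. In TG_PS19 against WT they called 31 of 10247 and 23 of 8908 genes, beside 233 of 12823 in cluster 18. Cacng3 in other excitatory neurons was called higher in TG_PS19 than in PS19, at 91.9 and 96.5 CPM in the PS19 pair and 138 in TG_PS19. Inhibitory neurons had Shisa6 at 227 CPM in WT, 347 and 502 in the PS19 pair and 418 in TG_PS19, lowest in WT. Shisa6 rose there in PS19 (log2 fold 0.92 ± 0.24, adjusted p = 0.029) and was called in TG_PS19 against WT (log2 fold 0.96 ± 0.27, adjusted p = 0.031). The PS19 fold was 1.17 and 0.61 without PS19 replicate 1 and 2 in turn, and the TG_PS19 call was kept in 6 of 12 alternative settings.

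In astrocytes Shisa6 was at 53.9 CPM in WT, 121 and 123 in the PS19 pair and 30.04 in TG_PS19. The PS19 pair lay close together and above both other libraries, and TG_PS19 was the lowest. Shisa6 rose in PS19 (log2 fold 1.15 ± 0.15, adjusted p = 1.4e-11). TG_PS19 was lower than PS19 (log2 fold -1.84 ± 0.17, adjusted p = 2.6e-23) and than WT (log2 fold -0.69 ± 0.19, adjusted p = 0.019). The latter call was lost in the astrocytes without pan-neuronal UMIs. The difference between TG_PS19 and PS19 was called in clusters 0, 7 and 19 fitted alone (-1.17, -1.20 and -3.69). The rise in PS19 was called in clusters 7 and 19 (0.76 and 2.86) but not in cluster 0 (0.35). Astrocyte Shisa9 was called lower in PS19 and higher in TG_PS19 than in PS19, at 9.86 to 20.2 CPM over the libraries. In oligodendrocytes Shisa9 had 56 UMIs in WT, 8 and 12 in PS19 and 34 in TG_PS19 and fell in PS19 (log2 fold -2.10 ± 0.41, adjusted p = 2.3e-05). Shisa7, at 8 to 32 UMIs per library, was called lower in PS19. In oligodendrocyte precursors Shisa9 was at 169 CPM in WT, 152 and 166 in the PS19 pair and 224 in TG_PS19, the single gene called there, higher in TG_PS19 than in PS19 (log2 fold 0.57 ± 0.17, adjusted p = 0.042).

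The Neto proteins are auxiliary subunits of kainate receptors, and Neto1 also binds NMDA receptors. Both were highest in oligodendrocyte precursors, Neto1 at 344 CPM (287 to 365) and Neto2 (chromosome 8, 85636588 to 85700924) at 118 CPM (103 to 134), with overlap of the next class. In CA1 pyramidal neurons Neto1 was at 125 CPM in WT, 77.5 and 53.8 in the PS19 pair and 96.3 in TG_PS19. The PS19 values were the 2 lowest, and Neto1 fell in PS19 (log2 fold -0.98 ± 0.20, adjusted p = 0.00064), the single call among 30 genes tested there. The call was lost at clustering resolution 2.0 (-0.46) and with doublets kept (-0.49). In WT 106 of these nuclei had a UMI of Neto1, and the most in any nucleus was 16. Astrocyte Neto2 was at 21.1 CPM in WT, 54.3 and 50.2 in the PS19 pair and 25.3 in TG_PS19. The PS19 pair lay above both others: Neto2 rose in PS19 (log2 fold 1.27 ± 0.19, adjusted p = 4.8e-09). It was lower in TG_PS19 than in PS19 (log2 fold -0.86 ± 0.20, adjusted p = 0.00042). The rise was called in cluster 7, at 33.00 CPM in WT, 96.2 and 81.6 in the PS19 pair and 65.4 in TG_PS19 (log2 fold 1.39 ± 0.27, adjusted p = 2.8e-05), and not in cluster 0 (log2 fold 0.12 ± 0.30, adjusted p = 0.98). Among the remaining Neto calls, astrocyte Neto1 was lower in PS19 (1 to 43 UMIs per library, and log2 folds of -4.04 and -1.69 without PS19 replicate 1 and 2 in turn), and Neto2 was higher in TG_PS19 than in PS19 in other excitatory neurons (61.6 to 86.5 CPM over the libraries) and oligodendrocytes (5.45 to 10.6 CPM).

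Other genes of the glutamate synapse were read from 4 lists over the same 9 classes. In PS19 against WT 11 of 169 tested pairs of scaffold and signalling genes were called (3 higher, 8 lower), beside 2.83% of all pairs. Of the synaptic organisers 12 of 83 were called, all lower, and of receptor assembly genes 4 of 67, all lower. Of genes for glutamate release and uptake 10 of 55 were called (2 higher, 8 lower). The median log2 folds of the lists were -0.01, -0.09, -0.12 and -0.09, against 0.01 over all pairs. Most of the leading calls were again in oligodendrocytes: the organiser Lrrtm4 (log2 fold -1.55 ± 0.14, adjusted p = 1.8e-24), the scaffold Dlgap1 (log2 fold -1.34 ± 0.15, adjusted p = 6.4e-17), Olfm1, which binds AMPA receptor complexes (log2 fold -1.10 ± 0.15, adjusted p = 1.9e-11), and the astrocytic transporter gene Slc1a2 (log2 fold -1.98 ± 0.13, adjusted p = 6.4e-48). The pan-neuronal and astrocyte sums given above for that class were lower in PS19 as well, and Slc1a2 is itself in the astrocyte list. The part of RNA from other classes in these calls was not tested.

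In TG_PS19 against PS19 the lists gave 3 of 169, 15 of 83, 4 of 67 and 11 of 55 calls in the same order, beside 5.43% of all pairs, of which 2, 14, 4 and 10 were higher in TG_PS19. In neurons the leading ones were Olfm3 in other excitatory neurons (log2 fold 0.65 ± 0.14, adjusted p = 0.0003), Slc1a3 in dentate granule neurons (log2 fold 0.66 ± 0.13, adjusted p = 4.9e-05), and Homer1, a scaffold of metabotropic receptors, in dentate granule neurons (log2 fold -0.40 ± 0.12, adjusted p = 0.015). Slc1a3 is in the astrocyte marker list, and the part of astrocyte RNA in its dentate granule call was not tested. TG_PS19 against WT gave 1, 4, 2 and 2 calls, beside 2.41% of all pairs, led by the pentraxin Nptx2 in dentate granule neurons (log2 fold -1.73 ± 0.44, adjusted p = 0.0030), which clusters AMPA receptors.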

How the data were processed

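Nuclei of pooled frozen hippocampus were profiled with the 10x Genomics 3′ v3.1 kit in 4 libraries. The values are the filtered UMI counts per gene and nucleus that the authors deposited, made with Cell Ranger 7.1.0 on GRCm38, per the submitters' processing notes. No other normalisation had been applied to these counts. The 35 genes and all other lists were chosen with earlier results of these data known.

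Nuclei were kept above minima of 500 UMIs and 300 genes, with a mitochondrial share of 5% or less, and doublets, called from simulated doublets at an expected 0.8% per 1000 nuclei, were removed. Leiden clustering (leidenalg 0.10.2, resolution 1, 2000 variable genes without the 35, 30 components) gave 33 clusters, which were named from marker lists. UMIs were summed per class and library and tested with edgeR 4.0.16 (quasi-likelihood, TMM scaling, low-count filter), with all 4 libraries in 1 fit per class and Benjamini-Hochberg adjustment over all genes of the class. Only the PS19 pair left a residual degree of freedom (1), so p-values measure only the spread between those 2 libraries. The values after ± are standard errors of the log2 fold.

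Named genes were those called, up to 20 per comparison by smallest adjusted p, and up to 3 per pathway list. A further list of related genes is not reported here. DESeq2 1.42.0, other scalings, filters, clusterings, thinned nuclei and left-out libraries were the alternatives tried. Fits per cluster, fits of glial nuclei without pan-neuronal UMIs, fits without a nucleus rich in a gene, adjusted residual degrees of freedom and class levels without a PS19 replicate were added after seeing the data. The edgeR step was tested on simulated data. Levels were compared only within a gene across classes and libraries.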

Additional observations from a re-analysis of the deposited data

Results flagged for a closer look

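Some genes moved in opposite directions in different classes under the same comparison, each direction called by edgeR. The difference between the classes was not tested. It is given as the log2 fold in the class where the gene was higher minus that in the class where it was lower.

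In PS19 against WT, Grik4 differed by 0.96 between astrocytes and dentate granule neurons. Grm5 differed by 2.58 between astrocytes, where it rose, and microglia, where it fell. Shisa9 differed by 2.66 between other excitatory neurons and oligodendrocytes. In TG_PS19 against PS19, Grik4 differed by 1.31 between dentate granule neurons and astrocytes, the reverse of its order in PS19 against WT, which shares the PS19 libraries. Shisa6 differed by 2.19 between dentate granule neurons and astrocytes. Gria1 and Neto2 were higher in oligodendrocytes and lower in astrocytes, by 1.43 and 1.73. Grm5 differed by 2.53 between microglia and astrocytes, and Grik3 by 1.54 between other excitatory neurons and oligodendrocytes. In TG_PS19 against WT, Grm3 differed by 1.32 between astrocytes and dentate granule neurons and Shisa6 by 1.65 between inhibitory neurons and astrocytes. The pan-neuronal sums in oligodendrocytes and microglia, lowest in PS19, moved with the directions in those classes for all of these genes but Grik3. Oligodendrocyte Grik3 was lower in TG_PS19 than in PS19, while the sum was higher. The astrocyte sum was also lowest in PS19, but astrocyte Grik4 and Grm5 were higher in PS19 than in WT. Astrocyte Gria1, Grik4, Grm5, Shisa6 and Neto2 were lower in TG_PS19 than in PS19, and Grm3 was higher in TG_PS19 than in WT, each against that sum. Astrocyte Shisa9 in PS19 against WT and Shisa6 in TG_PS19 against WT moved with it. The part of such RNA was not tested.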

How the results depend on the processing

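In PS19 against WT the 39 calls became 7 with DESeq2 and 11 with nuclei thinned to 1000 UMIs, and the other alternatives gave 36 to 49. In TG_PS19 against PS19 the 44 calls became 8 with DESeq2, 9 thinned and 67 with doublets kept, and the others gave 31 to 46. In TG_PS19 against WT the 17 calls became 1 with DESeq2 and 1 thinned, and the others gave 13 to 20. The cause of these moves was not tested. With thinning 196 pairs could be tested, against 260 without it. Grin2a in Cajal-Retzius neurons in PS19 against WT reversed to 0.0089 at resolution 2.0 (adjusted p = 1 by edgeR). Of the named pairs, 14 of 20, 11 of 20 and 7 of 17 lost their call with DESeq2 or thinning and with no other setting, apart from those added after seeing the data. Gria4 in astrocytes and Grin2a and Grm8 in Cajal-Retzius neurons lost their calls without 1 nucleus. Leaving out a PS19 replicate removes the only residual degree of freedom, so it gave values without a test, and no named pair changed direction. Over all 12 classes the highest class was the same for 32 of 35 genes thinned, 32 by the mean of per-nucleus CPM, and 32 and 33 without PS19 replicate 1 and 2. With doublets kept only the 9 neuron and glial classes were compared, and the highest of these was the same for 30 of 35. The mural levels of Grm3 and Grm7 were not covered by that setting. No paired analysis was possible because replicate numbers are given for PS19 alone. WT and TG_PS19 rest on 1 library each, and low-level calls in glia rest on few UMIs.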
